A study of Pararge aegeria with 4 samples.

Results

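Mitochondrial ribosomal proteins were examined in the ovaries of the Speckled Wood butterfly *Pararge aegeria*. Members were the contigs, that is the assembled transcript sequences, with an annotation containing both "ribosomal protein" and "mitochondrial", and the levels of such contigs were summed per Trinity gene, the assembler's grouping of related contigs. A symbol beginning with mRpL or mRpS would also have qualified, but none of the contigs carried one. In all, 80 contigs were members, belonging to 73 of 9873 Trinity genes. By their annotation 45 genes encode large subunit proteins, 25 encode small subunit proteins and 3 could not be assigned. A protein number was given for 57 genes, which are called mRpL or mRpS with that number below. The other 16 are called by the identifier of their best hit in an earlier *P. aegeria* ovarian transcriptome, such as PACG5798.

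Ovaries came from laboratory-reared females of the Zonza population from Corsica and the St Hubert population from Belgium, the Zonza stock being the more recently established. All were mated females at day 6 after mating, and no treatment was given. Ovarian RNA of 2 of them went into the single mRNA library of each population. With 1 library each, population, stock history, the females sampled and the library cannot be told apart, and the differences below have no replicate check and no test. Levels are in FPKM, fragments scaled by transcript length and by the library's depth.

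The mitochondrial ribosome translates the few proteins encoded by the mitochondrial genome, which are core subunits of the respiratory chain and ATP synthase. All of its own proteins are encoded in the nucleus, translated in the cytosol and imported into the organelle. Some descend from bacterial ribosomal proteins, and others were gained by mitochondria and have no bacterial counterpart. The egg inherits its mitochondria from the mother, and their number grows greatly during oogenesis.

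The labelled tissue was checked against marker genes. Of the 7 ovary and germ line markers, each above 0 in both libraries, the follicular epithelium yolk protein alone had 23095.9 FPKM in Zonza and 28146.1 FPKM in St Hubert. The other 6, entries annotated as nanos, vasa and the yolk receptor yolkless, summed to 1194 FPKM in Zonza and 1502 FPKM in St Hubert, with 2 of them higher in Zonza. Of those 2, the yolkless entry (46.8 FPKM in Zonza, 26.4 FPKM in St Hubert) had a general transcription factor as its BLASTx hit. The yolkless entry with a vitellogenin receptor hit had 154.6 FPKM in Zonza and 264.7 FPKM in St Hubert. The 10 eggshell (chorion) genes summed to 9533 FPKM in Zonza and 2552 FPKM in St Hubert, or 3.74-fold higher in Zonza. The 7 fat body genes summed to 7216 FPKM in Zonza and 2994 FPKM in St Hubert, 2.41-fold higher in Zonza, with 1 of them, a storage protein, listed at 0 in St Hubert. Most of this sum came from a vitellogenin entry (4807 FPKM in Zonza, 2522 FPKM in St Hubert) and apolipophorin-III (2086 FPKM in Zonza, 318.7 FPKM in St Hubert). Some entries in these lists had BLASTx hits to other proteins, and a prophenoloxidase was counted for both fat body and haemocytes. The 13 muscle genes summed to 2347 FPKM in Zonza and 2512 FPKM in St Hubert, with 1 myosin heavy chain entry listed at 0 in Zonza. An actin entry alone had 1823 FPKM in Zonza and 1949 FPKM in St Hubert. Likewise, most of the cuticle sum below came from cuticle protein CPH43, with 654.9 FPKM in Zonza and 1393 FPKM in St Hubert. The 23 cuticle genes summed to 784 FPKM in Zonza and 1528 FPKM in St Hubert, with 2 at 0 in Zonza and 1 at 0 in St Hubert, and the 3 haemocyte genes summed to 1.64 FPKM in Zonza and 5.46 FPKM in St Hubert. The part of these differences in the ribosomal protein values below was not tested. In whole ovaries, fewer cells of a type and less RNA per cell cannot be told apart.

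The mitochondrial ribosomal protein genes were expressed at moderate and much alike levels. Their median was 42.0 FPKM in Zonza (quartiles 34.7 and 56.5) and 38.9 FPKM in St Hubert (27.4 and 49.0), against 18.8 FPKM over all genes in each library. Here all genes are the 9459 with a mean of at least 1 FPKM. A total of 66 of the 73 members were above the all-gene median in both libraries, and 62 lay between 20 and 80 FPKM in both. The upper quartile of the members was 1.63 times the lower quartile in Zonza and 1.79 times in St Hubert, against 5.08 and 4.83 times for all genes. Together the members summed to 3375 FPKM in Zonza and 2961 FPKM in St Hubert, which was 0.612% and 0.543% of each library's total. The levels of all members are shown in the plot of members by library.

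**Figure D1:**
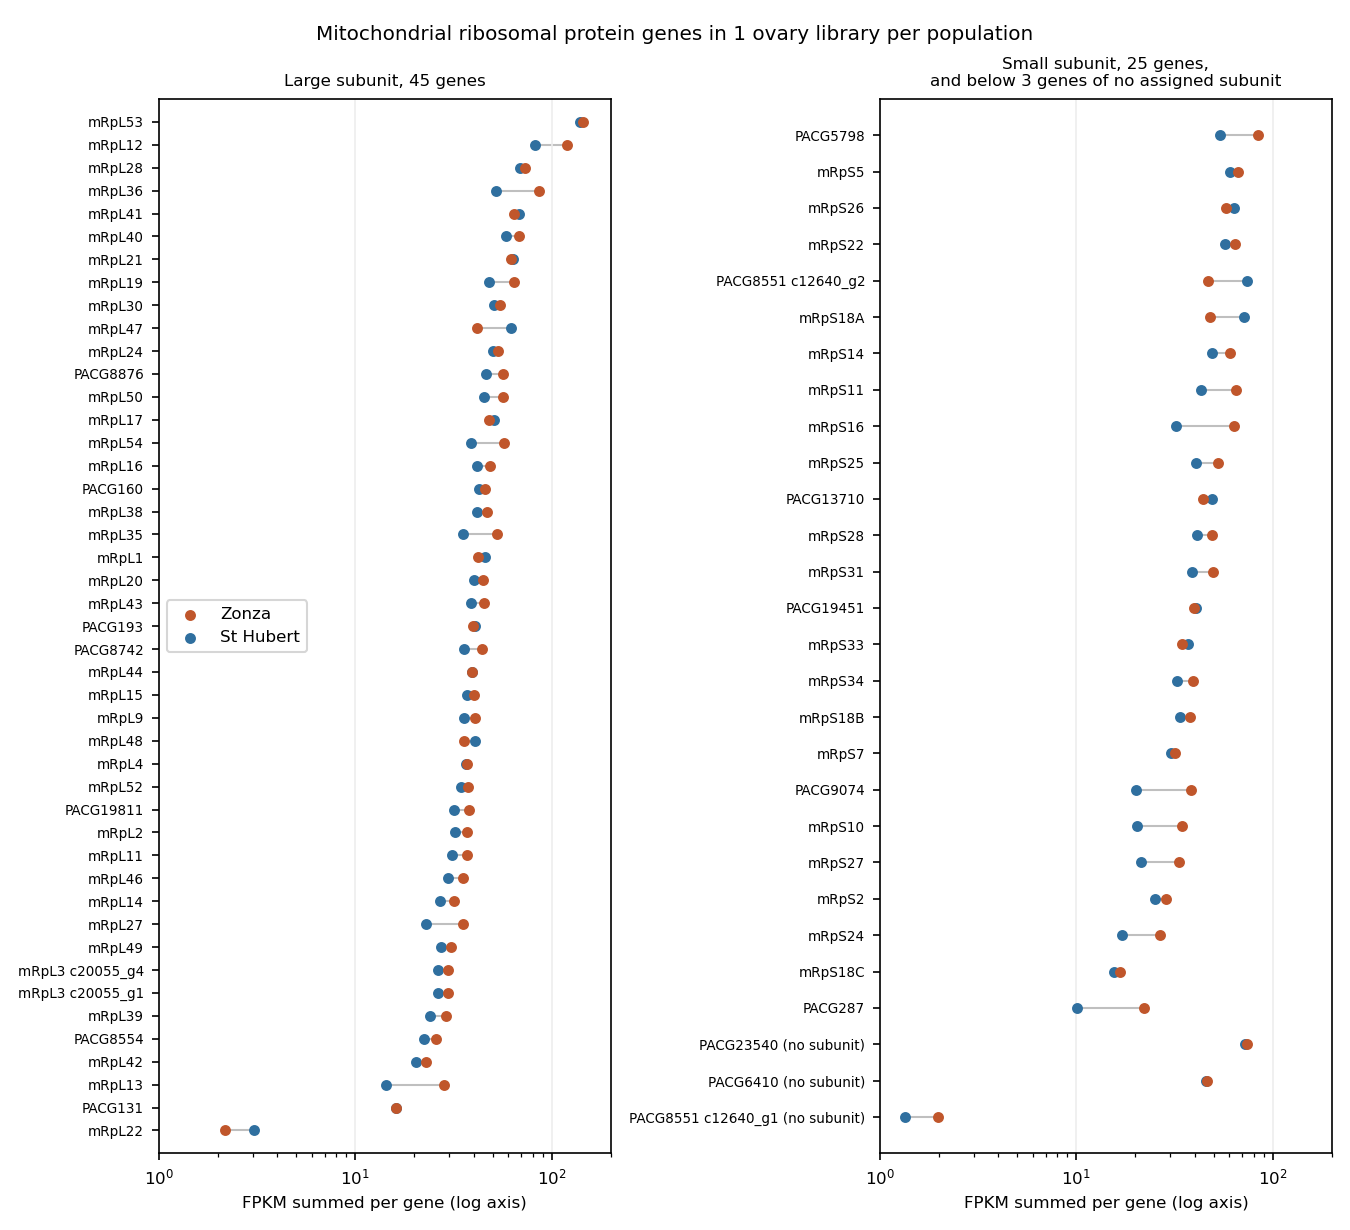
FPKM of each of the 73 mitochondrial ribosomal protein genes (log axis) in the Zonza library (orange) and the St Hubert library (blue), 1 library each, ordered by mean level within the large subunit (left) and the small subunit (right). The 3 genes of no assigned subunit are placed apart, at the bottom of the right panel. mRpL53 and mRpL12 are at the top of the large subunit, and only mRpL22 and 1 entry of PACG8551 are below 10 FPKM.

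Large and small subunit genes had nearly the same median level. The median of the 45 large subunit genes was 41.8 FPKM in Zonza and 38.9 FPKM in St Hubert, and that of the 25 small subunit genes was 44.0 FPKM in Zonza and 38.9 FPKM in St Hubert. The ratio of the medians, large over small, was 0.950 in Zonza and 0.998 in St Hubert. The summed FPKM of the large subunit was 1.87 times that of the small subunit in Zonza and 1.91 times in St Hubert, while the large subunit had 45 genes to 25. In both libraries the quartiles of the subunits overlapped widely.

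**Figure D2:**
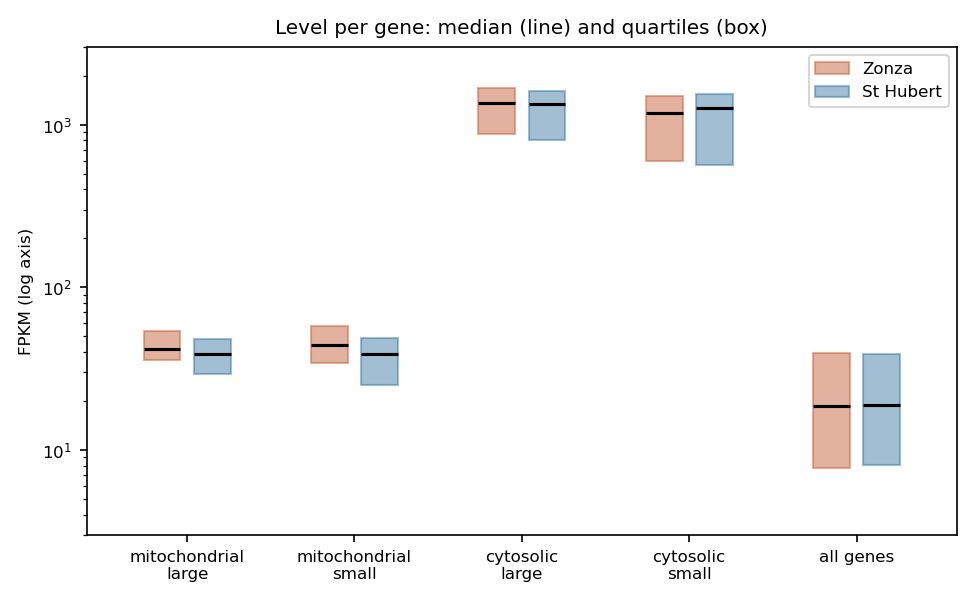
Median (black line) and quartiles (box) of FPKM per gene (log axis) in the Zonza (orange) and St Hubert (blue) libraries for the large and small subunit genes of the mitochondrial and the cytosolic ribosome and for all genes. Only genes with a mean of at least 1 FPKM are included, 9459 in all. The mitochondrial subunits had medians between 38.9 and 44.0 FPKM, and the cytosolic ones between 1184 and 1350 FPKM.

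Within the large subunit, mRpL53 had the highest level, with 144 FPKM in Zonza and 140 FPKM in St Hubert. mRpL53 is a protein with no bacterial counterpart. The next was mRpL12, which forms the flexible stalk that receives translation factors, with 120 FPKM in Zonza and 81.8 FPKM in St Hubert. In the BLASTx search its contig matched an entry described as a cytosolic L7 protein, a name that the bacterial stalk protein L7/L12 shares in part. mRpL28 had 73.2 FPKM in Zonza and 69.1 FPKM in St Hubert. mRpL36, a small zinc-binding protein in bacteria, had 86.1 FPKM in Zonza and 52.1 FPKM in St Hubert. mRpL41, which is specific to mitochondria, had 64.6 FPKM in Zonza and 68.2 FPKM in St Hubert. Among these 5, mRpL12 and mRpL36 were higher in Zonza by more than the counting error, and the other 3 were not.

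mRpL2, mRpL3 and mRpL16, which lie at or near the catalytic centre, had levels between 26.4 and 48.7 FPKM. mRpL2, next to the peptidyl transferase centre, had 36.97 FPKM in Zonza and 31.99 FPKM in St Hubert. mRpL3, which reaches into the same centre, was listed at 29.5 FPKM in Zonza and 26.4 FPKM in St Hubert. mRpL16, which contacts the tRNAs, had 48.7 FPKM in Zonza and 41.7 FPKM in St Hubert. The log2 ratios of these 3 genes were 0.20, 0.15 and 0.22. mRpL11, at the base of the stalk, had 36.9 FPKM in Zonza and 31.0 FPKM in St Hubert. mRpL4, which lines the tunnel through which the new protein leaves, had 36.9 FPKM in Zonza and 36.6 FPKM in St Hubert, summed over contigs described further below. The stalk protein mRpL12 was therefore listed at more than 2 times the level of mRpL11, on whose side of the subunit it sits, in both libraries.

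The lowest large subunit entries were mRpL22, PACG131 and mRpL13. mRpL22, another protein of the exit tunnel, had 2.17 FPKM in Zonza and 3.05 FPKM in St Hubert, and its contigs are described further below. PACG131 had 16.10 FPKM in Zonza and 16.04 FPKM in St Hubert. mRpL13, in bacteria one of the first proteins to bind the ribosomal RNA during assembly, had 28.3 FPKM in Zonza and 14.3 FPKM in St Hubert. It was the large subunit gene with the greatest log2 ratio, 0.93.

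Within the small subunit, PACG5798 had the highest mean level, with 84.5 FPKM in Zonza and 53.9 FPKM in St Hubert. mRpS5, which lies at the entry of the mRNA channel in bacteria, had 66.5 FPKM in Zonza and 60.5 FPKM in St Hubert. mRpS26, specific to mitochondria, had 57.8 FPKM in Zonza and 63.6 FPKM in St Hubert. These were followed closely by mRpS22, also specific to mitochondria, with 63.9 FPKM in Zonza and 57.2 FPKM in St Hubert. PACG8551 came next, with 46.7 FPKM in Zonza and 73.8 FPKM in St Hubert for its main entry. The last 4 of these means lay within 60.3 and 63.5 FPKM, so their order is not settled by 1 library per population. mRpS7, which nucleates the assembly of the head of the small subunit in bacteria, had 31.8 FPKM in Zonza and 30.4 FPKM in St Hubert.

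At the low end of the small subunit was PACG287, with 22.02 FPKM in Zonza and 10.05 FPKM in St Hubert. mRpS18C had 16.7 FPKM in Zonza and 15.6 FPKM in St Hubert. mRpS24, which belongs to the same family as bacterial S3 at the mRNA entry, had 26.8 FPKM in Zonza and 17.1 FPKM in St Hubert. No numbered small subunit gene was below 15 FPKM in either library.

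Zonza had the higher level in most members, by a small amount. On the log2(FPKM + 1) scale, on which folds of low genes are understated, the ratio of Zonza over St Hubert was above 0 in 58 of the 73 members, or 79.5%, against 49.3% of the 9459 genes with a mean of at least 1 FPKM. All 73 members had such a mean. The median log2 ratio of the members was 0.17 (quartiles 0.04 and 0.32), a 1.13-fold difference, while that of all genes was -0.01 (quartiles -0.29 and 0.28). In the 4126 other genes with a mean level between 16.1 and 70.0 FPKM, as in most members, 52.3% were above 0 and the median was 0.02. Only 1 member was past 2-fold higher in Zonza and 0 were past 2-fold lower, 1.37% in all, against 10.3% of all genes in either direction (5.2% higher and 5.11% lower). In the 4126 other genes of like level the share past 2-fold was smaller, 6.64%, with 127 higher and 147 lower in Zonza. Genes of 1 ribosome are not independent of each other, and these counts describe these libraries.

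**Figure D3:**
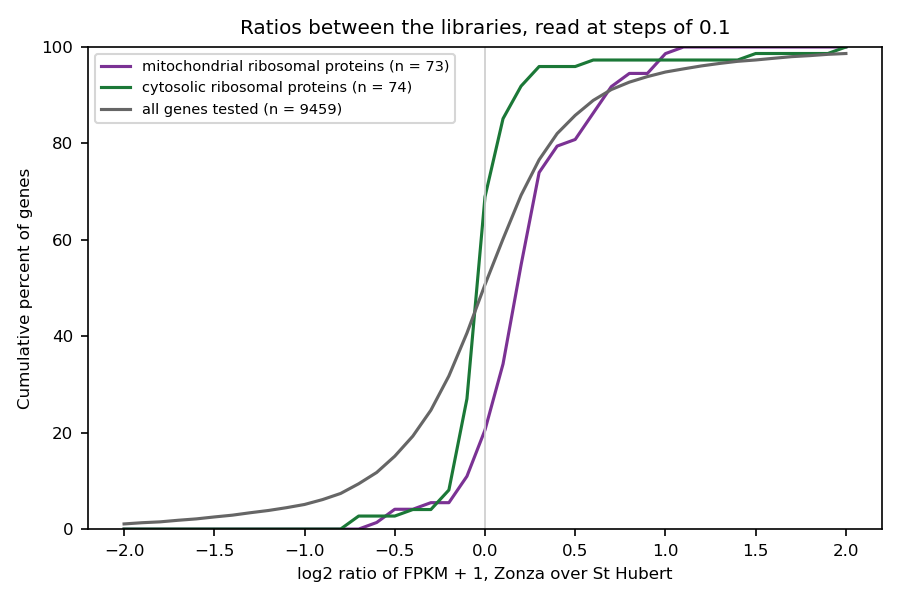
Cumulative percent of genes (vertical axis) at or below each log2 ratio of FPKM + 1, Zonza over St Hubert (horizontal axis), for 73 mitochondrial ribosomal protein genes (purple), 74 cytosolic ribosomal protein genes (green) and 9459 genes tested (grey). The purple curve lies to the right of 0 for 58 of its 73 genes, and the green curve for 23 of its 74. The green curve sums every contig of a Trinity gene, while the cytosolic values in the text sum only the contigs on that list.

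The number of fragments behind each member was estimated from the spacing of low FPKM values, and ranged from 13.7 to 3376 per library, with a median of 782. The counting standard error (SE) of a member's log2 ratio had a median of 0.07 and ranged from 0.04 to 0.51. This covers counting error only, not the variation between females or library preparations. The 95% counting interval of the log2 ratio left out 0 in 48 members, or 65.8%, which was close to the 64.8% of all genes tested. By direction, 41 members (56.2%) were higher and 7 (9.59%) lower in Zonza, against 32% and 32.8% of all genes and 38.6% and 34.9% of the 4126 other genes of like level.

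Ratios were more widely spread in the small subunit than in the large one. Of the 45 large subunit genes 36 were above 0, with a median log2 ratio of 0.17 and an SD of 0.26 over genes. Of the 25 small subunit genes 19 were above 0, with a median of 0.24 and an SD of 0.43 over genes. The difference of the medians, large minus small, was -0.08, and it was not tested. A 1.5-fold difference was reached by 3 large subunit genes, all higher in Zonza, which is 6.67% of 45. It was reached by 8 small subunit genes, 7 higher and 1 lower in Zonza, which is 32% of 25. Over all genes 11.4% were that much higher and 12% that much lower. Taken by single contigs instead of genes, the SD was 0.50 in the large subunit and 0.43 in the small, so the order of the spreads depends on summing contigs. By gene, both SDs lay below that of all genes (0.73), whose ratios reach from -7.6 to 8.87. The distance between the quartiles was 0.21 in the large subunit and 0.55 in the small one. It was 0.57 for all genes and 0.50 for the 4126 other genes of like level, so by this measure the small subunit was not less spread.

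**Figure D4:**
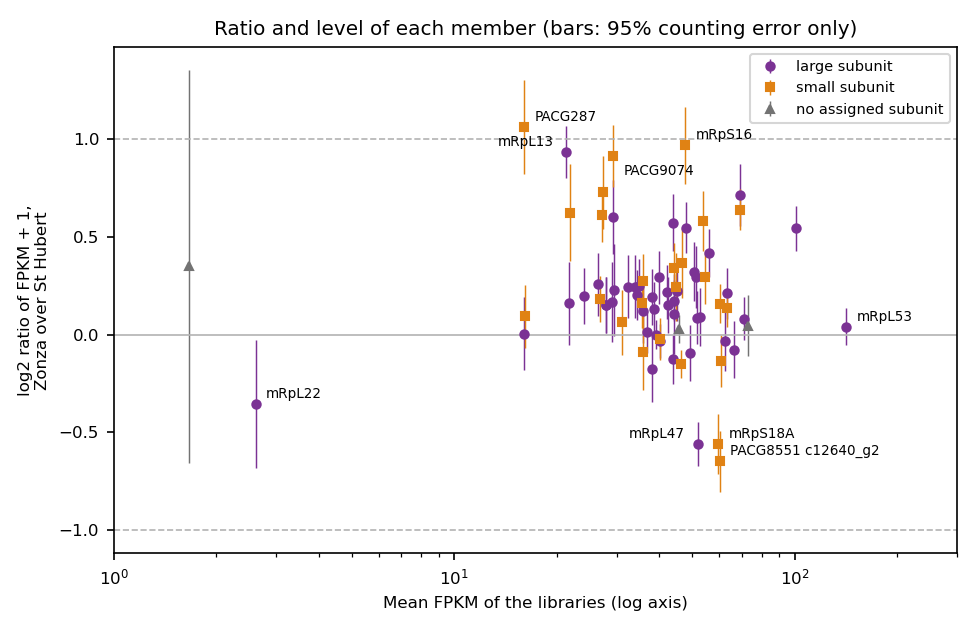
Log2 ratio of FPKM + 1, Zonza over St Hubert (vertical axis), against the mean FPKM of the libraries (horizontal log axis) for the large subunit (circles), the small subunit (squares) and genes of no assigned subunit (triangles), with bars of the 95% counting interval and dashed lines at 2-fold. Only PACG287, at 1.06, lies past a dashed line, and small subunit genes reach from -0.65 to 1.06.

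The largest ratios of the large subunit all had Zonza higher. After mRpL13, mRpL36 had a log2 ratio of 0.71 (counting SE 0.08). mRpL27, which lies beside the peptidyl transferase centre in bacteria, had 35.48 FPKM in Zonza and 23.03 FPKM in St Hubert, a log2 ratio of 0.60 (counting SE 0.10). mRpL35 had 52.8 FPKM in Zonza and 35.2 FPKM in St Hubert, a log2 ratio of 0.57. These 4 genes all belong to families shared with bacteria, as do 24 of the 38 numbered large subunit genes. Next came the mitochondrion-specific mRpL54, whose log2 ratio of 0.55 (counting SE 0.07) was close to that of mRpL35. In the other direction, mRpL47, the relative of bacterial L29 near the tunnel exit, had 41.8 FPKM in Zonza and 62.0 FPKM in St Hubert, a log2 ratio of -0.56 (counting SE 0.06). No other large subunit gene with a mean of at least 5 FPKM was below -0.18. mRpL48 had 35.7 FPKM in Zonza and 40.5 FPKM in St Hubert, mRpL1, which forms the mobile stalk on the tRNA exit side, 42.0 FPKM in Zonza and 45.9 FPKM in St Hubert, and mRpL17 47.7 FPKM in Zonza and 51.0 FPKM in St Hubert. The log2 ratios of mRpL48, mRpL1 and mRpL17 were -0.18, -0.13 and -0.09, and only that of mRpL48 was beyond its 95% counting interval. That of mRpL1 (counting SE 0.064) lay at the edge of its interval on the FPKM + 1 scale.

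In the small subunit, PACG287 had the largest log2 ratio, 1.06 (counting SE 0.12). mRpS16, a protein of the subunit's body that in bacteria is needed for its assembly, had 63.49 FPKM in Zonza and 32.01 FPKM in St Hubert, a log2 ratio of 0.97 (counting SE 0.10). PACG9074, the only member whose gene ontology terms include cell death, had 38.52 FPKM in Zonza and 20.01 FPKM in St Hubert, a log2 ratio of 0.91 (counting SE 0.08). mRpS10, a protein of the head, had 34.4 FPKM in Zonza and 20.4 FPKM in St Hubert, a log2 ratio of 0.73 (counting SE 0.10). mRpS24, mRpS27 and PACG5798 were also past 1.5-fold higher in Zonza, with log2 ratios of 0.62, 0.61 and 0.64. mRpS27, a mitochondrion-specific protein with RNA-binding repeats in mammals, had 33.1 FPKM in Zonza and 21.3 FPKM in St Hubert.

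Lower in Zonza were the main entry of PACG8551, with a log2 ratio of -0.65 (counting SE 0.08), and mRpS18A, with 48.04 FPKM in Zonza and 71.29 FPKM in St Hubert and a log2 ratio of -0.56. PACG13710 had 44.0 FPKM in Zonza and 48.9 FPKM in St Hubert, and mRpS26 had a log2 ratio of -0.14. The 3 relatives of bacterial S18 therefore had different ratios, with mRpS18B at 37.8 FPKM in Zonza and 33.6 FPKM in St Hubert and mRpS18C at a log2 ratio of 0.09. In the mammalian mitochondrial ribosome the S18A protein sits in the large subunit despite its name. Counted there, it left a median log2 ratio of 0.26 and an SD of 0.40 in the small subunit and gave 0.16 and 0.28 in the large one.

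Genes of families shared with bacteria and mitochondrion-specific genes had the same median ratio. Of the 57 numbered genes 36 belong to families with a bacterial homologue and 21 do not. The median log2 ratio was 0.17 in both classes, with 30 of 36 and 16 of 21 genes above 0. The bacterial class had a median of 41.9 FPKM in Zonza and 36.7 FPKM in St Hubert, and the mitochondrion-specific class 45.3 FPKM in Zonza and 38.9 FPKM in St Hubert. The ratio of these medians, bacterial over mitochondrion-specific, was 0.925 in Zonza and 0.944 in St Hubert. A 1.5-fold difference was reached by 6 of the 36 bacterial genes and by 1 of the 21 mitochondrion-specific genes, all 7 higher in Zonza, which is 16.7% and 4.76%, against the 11.4% higher and 12% lower of all genes.

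The similarity of BLASTx hits, which the rule did not use, had a higher median in the bacterial class. The mean similarity of hits had a median of 77.9% over the bacterial class (range 69.1% to 88.5%) and of 70.5% over the mitochondrion-specific class (60.8% to 85.3%). In the large subunit the medians were 78.1% and 71.4%, and in the small subunit 77.4% and 65.6%. The ranges overlapped, and each gene's value depends on the species in the database searched. All 73 members had a hit in the earlier ovarian transcriptome and the gene ontology term ribosome. The term mitochondrion was given to 40 of them and the term translation to 54.

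Ratios were alike in short and long contigs. The length of a gene was that of its contig with the highest mean FPKM. The median log2 ratio was 0.20 in the 20 members under 800 bases, 0.22 in the 21 of 800 to under 1100 bases and 0.16 in the 32 of 1100 bases and over. For all genes these medians were -0.02, 0.01 and -0.01. Spearman's rho between length and log2 ratio over the 73 members was -0.11, and between length and mean FPKM it was -0.40. The level of members agreed between the libraries with a rho of 0.88, which was 0.91 in the large subunit and 0.78 in the small subunit. These are correlations across genes that share both libraries and are given as a description.

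Most members, 67 of 73, were single contigs, but 6 of the Trinity genes held several. mRpL22 was in doubt among them. Its 2 member contigs, of 2879 and 3159 bases, had 2.17 and 0 FPKM in Zonza and 0 and 3.05 FPKM in St Hubert. The same Trinity gene held contigs of a sugar transporter of 2716 and 2732 bases, with 43.58 and 0 FPKM in Zonza and 0 and 46.01 FPKM in St Hubert. Each library was thus listed on a contig of its own for both proteins, and how reads were divided between the joined sequences cannot be told from these values. Of the 4154 genes with several contigs, 1256, or 30.2%, likewise had the top contig of 1 library listed at 0 in the other.

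PACG287 was the only member past 2-fold, and its Trinity gene turned the other way as a whole. The member contig of 1087 bases had 22.02 FPKM in Zonza and 10.05 FPKM in St Hubert. The other 2 contigs, of an uncharacterised protein, had 42.0 and 5.64 FPKM in Zonza and 72.7 and 8.27 FPKM in St Hubert. Summed over all 3, the gene had 69.7 FPKM in Zonza and 91.0 FPKM in St Hubert. The single 2-fold call therefore depends on which contigs are counted, and without it 0 members were past 2-fold.

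**Figure D5:**
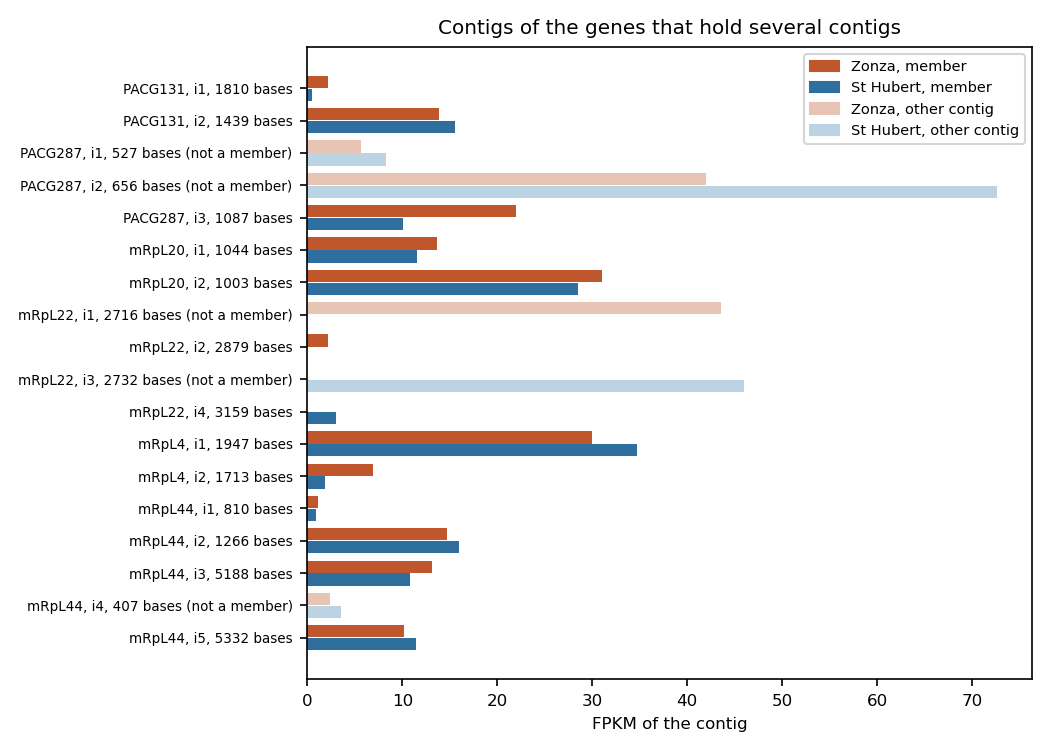
FPKM (horizontal axis) of each contig of the 6 Trinity genes that held several contigs, in the Zonza (orange) and St Hubert (blue) libraries, with contigs that were not members in pale colours. The mRpL22 gene is listed on different contigs in each library, and the PACG287 contigs move in opposite directions.

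The other genes with several contigs gave steadier sums. mRpL44, a relative of bacterial RNase III, had 39.2 FPKM in both libraries over 4 member contigs of 810 to 5332 bases, each with between 0.92 and 16.02 FPKM. A further contig of mRpL44, with 2.43 FPKM in Zonza and 3.53 FPKM in St Hubert, lacked the word mitochondrial and was not a member. mRpL4 had 29.97 and 6.97 FPKM on its contigs in Zonza and 34.7 and 1.90 FPKM in St Hubert, so that the contigs differed in direction while the sum did not move. Only the first of these contigs was named L4, and its log2 ratio was -0.21. The other matched a hypothetical protein in the earlier transcriptome and an unnumbered mitochondrial 39S protein by BLASTx, so the sum may not be of mRpL4 alone. mRpL20 had 44.7 FPKM in Zonza and 40.1 FPKM in St Hubert, and its 2 contigs were both higher in Zonza. PACG131 had 2.21 and 13.9 FPKM on its contigs in Zonza and 0.47 and 15.6 FPKM in St Hubert.

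Some members are of uncertain identity or were entered more than once. mRpL3 was listed as 2 Trinity genes of 1496 bases, each with 29.5 FPKM in Zonza and 26.4 FPKM in St Hubert. No other pair of contigs at 5 FPKM or more was identical in length and in both values, and whether reads were shared between the entries cannot be told apart. PACG8551 also had a low entry of 605 bases, with 1.98 FPKM in Zonza and 1.34 FPKM in St Hubert, on an estimated 19.0 and 13.7 fragments. PACG6410, of 3443 bases, had 46.3 FPKM in Zonza and 45.5 FPKM in St Hubert, and its BLASTx hit was the E3 ubiquitin ligase synoviolin, not a ribosomal protein. PACG23540, with 74.3 FPKM in Zonza and 72.0 FPKM in St Hubert, could not be assigned to a subunit. Without mRpL22, PACG287, PACG6410, 1 entry of mRpL3 and the low entry of PACG8551, 79.4% of 68 members were above 0 and the median log2 ratio was 0.18.

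Cytosolic ribosomal proteins were close to equal in the libraries, with most slightly lower in Zonza. Of the 74 of 75 such genes with a mean of at least 1 FPKM, 23 had a log2 ratio above 0 and 51 below, with a median of -0.04. Their median level was 1247 FPKM in Zonza and 1280 FPKM in St Hubert, 29.7 and 32.9 times that of the mitochondrial ribosomal proteins. They held 15.44% of the total FPKM in Zonza and 15.96% in St Hubert. The 2 past 2-fold, both higher in Zonza, were short low entries of 309 and 351 bases with at most 22.5 FPKM. The list was drawn from the annotation and includes such fragments, as well as a few long contigs whose hits include other proteins, such as a signal peptidase subunit. By subunit, 15 of 41 large and 8 of 33 small cytosolic genes were above 0, against 36 of 45 large and 19 of 25 small mitochondrial ones. Whether the lists differ was not tested.

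Other nuclear genes of mitochondrial translation were divided between the libraries. Of 29 such genes, 15 were above 0 and 0 were past 2-fold in either direction, with a median log2 ratio of 0.04. The 13 entries of mitochondrial aminoacyl-tRNA ligases, which charge tRNAs with amino acids, had 6 above 0 and a median of -0.06. Among them the tryptophan ligase was entered as 2 Trinity genes, with log2 ratios of -0.21 and -0.59. The 9 translation factors had 4 above 0 and a median of -0.04. The elongation factor EF-Tu, which brings charged tRNAs to the ribosome, had 18.6 FPKM in Zonza and 24.3 FPKM in St Hubert, and its exchange factor EF-Ts had 72.7 FPKM in Zonza and 74.6 FPKM in St Hubert. EF-G, which moves the ribosome along the mRNA, had 44.0 FPKM in Zonza and 42.8 FPKM in St Hubert. The elongation factors thus differed by less than 1.5-fold, in either direction.

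The remaining 7 genes act in ribosomal RNA modification, ribosome assembly, mitochondrial transcription and RNA processing, and in formylation of the initiator tRNA. They had 5 above 0 and a median log2 ratio of 0.32. The mitochondrial RNA polymerase, which makes all RNA of the organelle including its ribosomal RNA, had 37.2 FPKM in Zonza and 18.9 FPKM in St Hubert, a log2 ratio of 0.94. GTP-binding protein 5, a GTPase of large subunit assembly in mammals, had 32.6 FPKM in Zonza and 20.8 FPKM in St Hubert. The GTPase era, which binds the ribosomal RNA of the small subunit, had 36.4 FPKM in Zonza and 29.1 FPKM in St Hubert. All 3 were higher in Zonza, while the dimethyladenosine transferases differed in direction. One had 69.8 FPKM in Zonza and 82.6 FPKM in St Hubert, and dimethyladenosine transferase 2 had 14.4 FPKM in Zonza and 11.3 FPKM in St Hubert. The formyltransferase of the initiator tRNA had 27.3 FPKM in Zonza and 35.2 FPKM in St Hubert.

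Entries matching the mitochondrial genome, whose protein-coding transcripts this ribosome translates, differed in both directions. Some of them, including the highest, matched no named protein and are not shown to be translated. The highest, of 1362 bases, had 9201 FPKM in Zonza and 11806.7 FPKM in St Hubert. Of 14 entries 4 were past 2-fold higher and 1 past 2-fold lower in Zonza, against 5.2% and 5.11% of all genes. The median log2 ratio of the entries was 0.23, while their summed FPKM was 14431.5 in Zonza and 16197.7 in St Hubert. Cytochrome oxidase subunit I had 1258 FPKM in Zonza and 2061 FPKM in St Hubert, cytochrome b 727 FPKM in Zonza and 611 FPKM in St Hubert, and NADH dehydrogenase subunit 4 457 FPKM in Zonza and 126 FPKM in St Hubert. In all, 5 entries were fragments under 600 bases, among them 3 of the 4 past 2-fold higher and the entry past 2-fold lower. That lower entry matched no named protein and was listed at 0 in Zonza and at 2.13 FPKM in St Hubert.

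A few genes of the mitochondrial ribosome lay outside the wording of the rule and were picked after their values were seen. The S12 protein of the decoding centre, MRP-S12, had 26.5 FPKM in Zonza and 27.3 FPKM in St Hubert. The exit tunnel protein L23 had 45.9 FPKM in Zonza and 33.3 FPKM in St Hubert, a log2 ratio of 0.45. The growth arrest and DNA damage-inducible proteins-interacting protein, a subunit of the large subunit in mammals also known as CRIF1, had 47.85 FPKM in Zonza and 23.97 FPKM in St Hubert, a log2 ratio of 0.97. All 3 had levels within the range of the members.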

How the data were processed

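mRNA of ovaries was sequenced by the authors as paired reads of 100 bases, the first 16 bases were trimmed, and the reads of both populations were assembled together with Trinity. The deposited FPKM values per contig were made by the authors with RSEM, and the submitters' processing notes also name Bowtie. Contigs were kept by the authors where BLAST gave a hit at an E-value of 1e-05, and no genome build applies. The columns headed Belgium and Corsica were taken as the St Hubert and Zonza libraries, from the study's description of its populations.

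FPKM was summed per Trinity gene, and genes with a mean of at least 1 FPKM were compared as log2(FPKM + 1), Zonza over St Hubert, with a threshold of 2-fold. No test was run, because each population has 1 library. Depth was estimated from low FPKM values of genes with 1 contig, which fell on whole multiples of 1 fragment (within 0.1 for 98.2% of 169 values in Zonza and 97.9% of 145 in St Hubert). This gave about 20400000 fragments in Zonza and 21600000 in St Hubert, with a mean fragment of 134 bases in both. Genes described in full were, per subunit, the 5 highest and 3 lowest in mean FPKM, the 4 largest log2 ratios in each direction at a mean of at least 5 FPKM, those past 2-fold, those with several entries or contigs, and a set of proteins of known position; others are named where a comparison needed them. The members and all lists were chosen with earlier results of these data known. The alternatives were other pseudocounts, filters, scalings, ways of summing contigs and membership rules. The 129 contigs with a mouse hit and no hit in the earlier transcriptome were left out of the marker and mitochondrial genome lists. Small RNA counts were not used here. The calculation was tested on simulated data. Python 3.11.15, pandas 2.3.3, numpy 2.4.6, scipy 1.17.1 and matplotlib 3.10.9 were used.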

Additional observations from a re-analysis of the deposited data

How the results depend on the processing

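No median log2 ratio of the members, of either subunit or of the other gene lists turned direction under the alternatives run. The share of members above 0 stayed between 76.7% and 80.8%, the median log2 ratio of the members between 0.15 and 0.19, and the difference of the subunit medians between -0.09 and -0.02. The number of members past 2-fold higher in Zonza was 1 in the report, 0 with a pseudocount of 5 FPKM, 0 with all contigs of the Trinity gene summed, 0 without the members of doubtful or double entry (chosen after seeing the data), 0 at a 4-fold threshold, 10 at 1.5-fold and 4 with single contigs. The number lower in Zonza was 0 in the report, 1 at 1.5-fold and 1 with single contigs. In single contigs, where the contigs of 1 gene are no longer added, 21.7% of all contigs tested were past 2-fold higher and 18.1% lower, the large over small ratio of median FPKM was 0.858 in Zonza and 0.898 in St Hubert, and the ratio of bacterial over mitochondrion-specific members was 1.06 in Zonza, on the other side of 1 from the 0.925 in the report; the SD of the log2 ratio in the large subunit was 0.50, above that of the small subunit at 0.43. With the entries of each protein summed, the ratio of bacterial over mitochondrion-specific members in St Hubert was 1.03, against 0.944 in the report. The large over small ratio in St Hubert also crossed 1, from 0.998 in the report. It was 1.019 summed per protein, 1.029 with mRpS18A counted in the large subunit and 1.003 at a mean of at least 5 FPKM. Cytosolic ribosomal proteins past 2-fold higher numbered 1 at a mean of at least 5 FPKM and 1 with a pseudocount of 5 FPKM, against 2, and 1 was lower with a pseudocount of 0.1 FPKM, against 0. Transcripts of the mitochondrial genome past 2-fold lower numbered 0 at a mean of at least 5 FPKM, 0 with a pseudocount of 5 FPKM and 2 with a pseudocount of 0.1 FPKM, against 1.

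No paired analysis was possible because each population has 1 library; leaving out a replicate was not run for the same reason. Depth limits the low entries most: the low entry of PACG8551 had a counting SE of 0.51, larger than its log2 ratio of 0.35.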
